A study of Homo sapiens with 2 samples.

Results

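The intermediate filament genes of vimentin, nestin and the neural filaments were examined in both substates of H9, an established human embryonic stem cell line. The set held 10 genes, namely VIM, DES, GFAP, PRPH, NEFL, NEFM, NEFH, INA, NES and SYNM, which are members of the filament types III, IV and VI. They were read by 13 of the 58201 probes on the array and were 10 of the 22439 genes that could be named. Substate 1 was H9 at passage 35 and substate 2 was H9 at passage 50, both grown without feeder cells in TeSR-E8 medium on Matrigel, a basement membrane extract to which the line had been moved from vitronectin. Each was measured on 1 array. The substates had been recognised by antibody staining, in which substate 2 colonies were positive for vimentin and weaker for the R-10G keratan sulphate epitope. A difference in VIM is therefore no independent finding, because its protein had defined the groups, and passage cannot be told apart from substate. Passage 35 is also the passage at which, by the methods, the line was moved to Matrigel, so time on that matrix cannot be told apart from substate either. With 1 array per substate no test was possible and no difference has a replicate check. In RNA pooled from many cells, more cells with a transcript and more transcript per cell cannot be told apart either, and how the cells were separated before this RNA was taken was not given in the sources used here.

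Intermediate filaments are rope-like polymers of coiled-coil proteins that resist stretch and position organelles. Vimentin forms them in mesenchymal cells, desmin in muscle, glial fibrillary acidic protein in astrocytes and peripherin in peripheral neurons. The neurofilament chains and alpha-internexin build the filaments of axons, and nestin, which needs a partner such as vimentin to assemble, is used as a marker of neural stem and progenitor cells. Vimentin is also a common marker of the epithelial-to-mesenchymal transition, in which keratin filaments give way to vimentin filaments.

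To show the regulatory sequence of the gene that differed and of the neural marker that differed little, the 250 bases before the start of VIM and of NES in the RefSeq table (build GRCh38.p14) are given, 5′ to 3′ on the strand of the gene. VIM lies on the plus strand at chr10:17227991-17228240, and NES on the minus strand at chr1:156677408-156677657. Capitals mark GC boxes (GGGCGG on either strand), which Sp1-type factors bind.
VIM: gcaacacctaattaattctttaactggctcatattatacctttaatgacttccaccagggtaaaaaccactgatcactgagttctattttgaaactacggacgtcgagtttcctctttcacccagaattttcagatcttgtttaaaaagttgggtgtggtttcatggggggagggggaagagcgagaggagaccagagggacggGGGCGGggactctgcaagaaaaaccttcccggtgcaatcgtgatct
NES: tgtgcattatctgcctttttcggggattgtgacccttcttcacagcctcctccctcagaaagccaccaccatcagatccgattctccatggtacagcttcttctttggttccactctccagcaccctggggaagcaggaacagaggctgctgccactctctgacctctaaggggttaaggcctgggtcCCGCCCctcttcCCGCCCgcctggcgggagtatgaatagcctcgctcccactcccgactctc
The VIM window held 1 GC box and the NES window 2, and such a box occurred in 42.6% of the 35116 windows of the same length. Neither window held an E-box of the kind that ZEB proteins bind (CACCTG on either strand, in 17.5% of all windows) or an octamer of the kind that POU proteins bind (ATGCNAAT on either strand, in 2.69%). Among the other members with a window in the table, INA and SYNM had 4 GC boxes each and PRPH had none, and the SYNM window alone held an E-box (1). The windows end just before a single annotated start, and the arrays do not tell which start was used, so these letters describe the sequence and do not explain a difference.

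Signals are given as the processed intensity of the scanner and as the normalised log2 signal, in which 0 is the 75th percentile of the array. That percentile was an intensity of 313.7 in substate 1 and 275.4 in substate 2, and probes well above background reached down to 14.5 and 15.0. A probe is called measured where it was well above background on both arrays, which held for 29883 probes, and no spot was saturated. Their differences, always substate 2 minus substate 1 on the log2 scale, had a median of 0.06 and an SD of 0.40 across probes. Each member probe was printed once per array. The only errors available are the scanner's own error of a signal, which came to 0.20 to 0.26 for a member difference, and the spread between repeated spots of other probes, which gave an SD of 0.07 for a difference. The scanner error is supplied with each signal and rose in step with it, for VIM 280.2 at 2801.8 and 1415.7 at 14157.1. It was therefore nearly the same for all brighter member probes and is not a spread measured on repeats. Values over or under it are thus described by size only. Both errors leave out the variation of cells, RNA and labelling.

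VIM was the one member that differed by more than 2-fold. Its probe had an intensity of 2802 in substate 1 and 14157 in substate 2, or a normalised log2 signal of 3.16 and 5.68. The difference of 2.53 ± 0.20 (scanner error, 1 array each) was 5.76-fold. Vimentin RNA was thus well above background in substate 1 also, although colonies of that substate were scored negative for vimentin when stained without permeabilisation. The value rested on 1 probe and 1 spot per array. The 67 measured probes within 5 rows and columns of that spot had a median difference of 0.01, with a range of -1.05 to 0.98, and the local background was 39 and 41 intensity units.

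**Figure D1:**
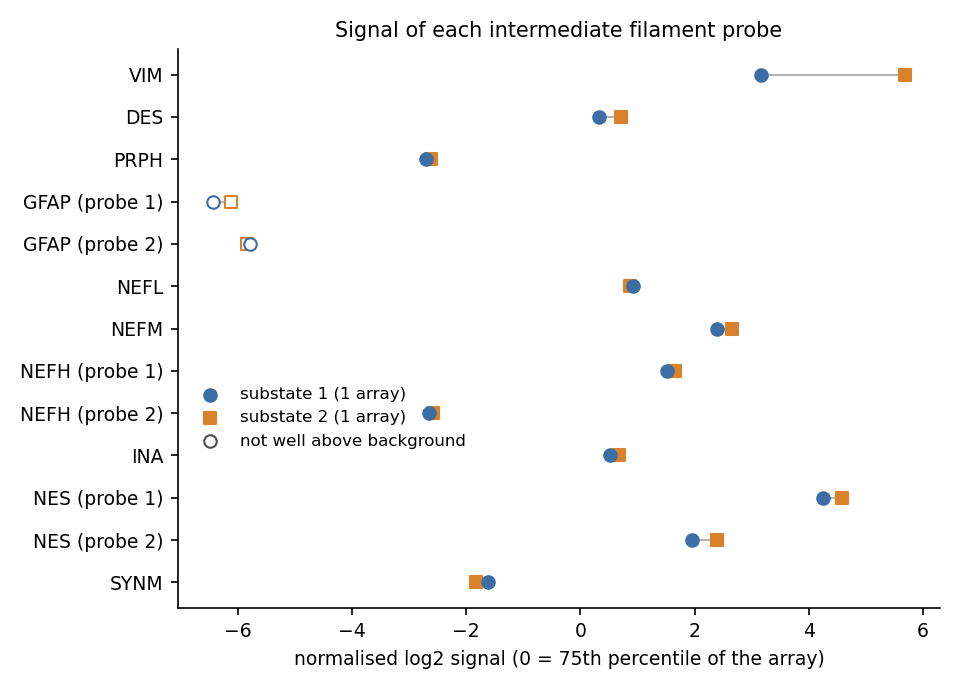
Normalised log2 signal (x axis, 0 being the 75th percentile of the array) of each of the 13 filament probes, with circles for the substate 1 array, squares for the substate 2 array and open symbols where the probe was not well above background. VIM moved from 3.16 to 5.68, whereas the symbols of every other measured probe lie within 0.43 of each other.

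Few probes measured on both arrays differed as much as VIM. Among the measured probes 14 had a larger difference, and among the 16001 genes measured on both arrays VIM ranked 12. The next genes above it in that order were LOC283731 (2.53), ZEB1 (2.54), a zinc finger factor that contributes to the epithelial-to-mesenchymal transition, and PAX8 (2.61). The next below were LHX5-AS1 (2.37), LHX2 (2.32) and FOXS1 (2.30). Likeness here means only the size of the difference over 2 arrays. Genes above background on 1 array only were outside this order, among them POU3F2 with a difference of at least 3.73.

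**Figure D2:**
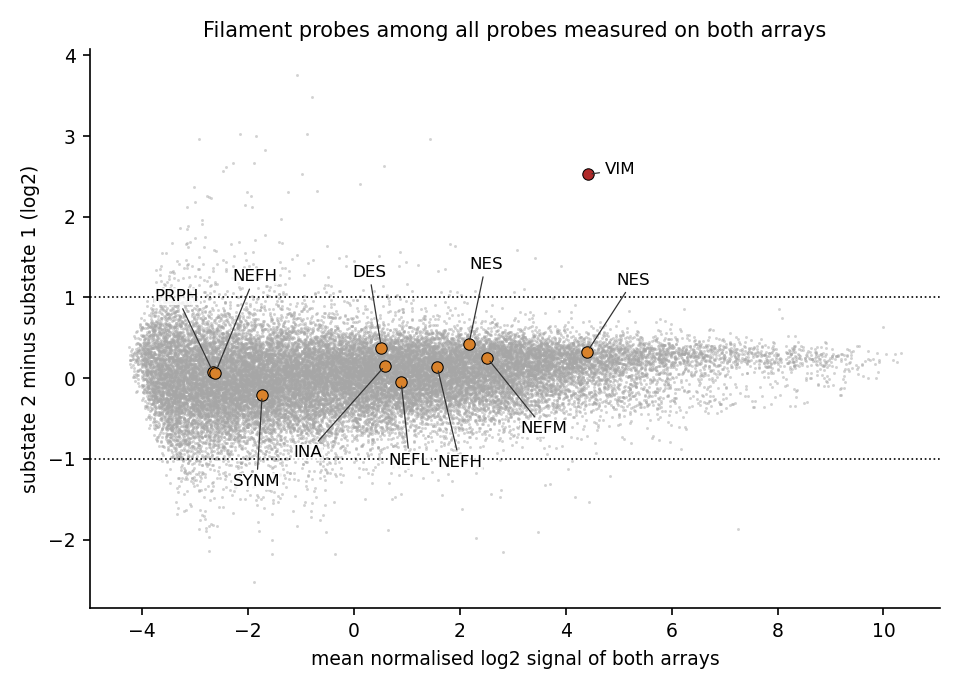
Difference (y axis, substate 2 minus substate 1, log2) against mean normalised log2 signal of both arrays (x axis) for the probes measured on both arrays, with the 11 measured filament probes labelled, dotted lines at 2-fold and a probe below the lower edge not drawn. VIM lies at 2.53, and the other filament probes lie between the dotted lines.

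VIM-AS1, a noncoding RNA whose gene overlaps the start of VIM on the opposite strand, gave a reading from the same locus. Its first probe had normalised log2 signals of -2.38 in substate 1 and -2.08 in substate 2, and the other had -1.48 and -1.18. Both differences were 0.30, inside the 2-fold limit, so the difference at the locus was far larger for the sense transcript on these arrays.

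NES, the nestin gene, was well above background by both of its probes and differed by less than 2-fold. One had intensities of 5949 and 6560, or normalised log2 signals of 4.25 and 4.57, a difference of 0.33 ± 0.20 (scanner error) or 1.26-fold. The other had 1221 and 1440, or 1.96 and 2.39, a difference of 0.43 ± 0.20 or 1.34-fold. Both were higher in substate 2 and lay 0.10 apart, closer than the median gap of 0.16 between probes of the same gene. Both differences were larger than the scanner error as reported. That of the first probe was 0.19 after loess centring, 0.20 after quantile normalisation and 0.20 after subtraction of the median of its neighbouring spots, each under its scanner error.

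Among the remaining type III genes, DES (desmin) had intensities of 394.6 in substate 1 and 450.7 in substate 2. Its normalised log2 signals were 0.33 and 0.71, a difference of 0.38 ± 0.20 (scanner error) or 1.30-fold. PRPH (peripherin) had intensities of 48.4 and 44.9, normalised log2 signals of -2.70 and -2.62 and a difference of 0.08 ± 0.26. DES was higher by more than its scanner error and PRPH by less. GFAP (glial fibrillary acidic protein) was well above background on neither array by either of its probes. The intensities were 3.62 and 3.98 for one probe and 5.72 and 4.84 for the other, under the lowest signals that counted as well above background, so no fold is given. The array cannot show GFAP RNA below that level.

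The tissue markers that belong with these genes gave their own values. Of the 12 muscle markers 9 were measured, none of them past 2-fold, with a median of -0.17 that became 0.01 after normexp background correction. The lowest were TNNT2 (-0.93), ACTA1 (-0.88) and TAGLN (-0.69), and the highest was ACTA2 (0.36), with 6 values below 0 and 3 above. MYF5, ACTC1 and MYH6 were above background on neither array. Of the 6 peripheral neuron markers 2 were measured, RET (-0.14) and SCN9A (-0.69), and ISL1 and POU4F1 were among those above background on neither array. Of the 10 astrocyte markers 9 were measured and S100B was not. One of them, FABP7, a fatty acid binding protein also found in radial glia, was 2.72-fold higher in substate 2 (1.44), while AQP4, the water channel of astrocyte endfeet, had -0.93. Of all genes 1.42% were past 2-fold higher and 1.31% lower.

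The type IV genes of neurons were all measured and none was past 2-fold. NEFL, the light neurofilament chain, had intensities of 593.3 and 504.1, or normalised log2 signals of 0.92 and 0.87, a difference of -0.05 ± 0.20 (scanner error). NEFM, the medium chain, had 1651 and 1724, or 2.40 and 2.65, a difference of 0.25 ± 0.20. NEFL and NEFM are neighbours on chromosome 8 and their values lay 1 on each side of 0. NEFH, the heavy chain, had a probe with intensities of 891.9 and 862.3 and a difference of 0.14 ± 0.20. Its other probe had 50.1 and 46.1 and a difference of 0.07 ± 0.25. The NEFH probes lay 0.07 apart. INA (alpha-internexin) had 448.7 and 439.2, or 0.52 and 0.67, a difference of 0.16 ± 0.20. Of these 5 neurofilament and internexin probes, NEFM alone differed from 0 by more than its scanner error of 0.204. Its difference was under that error after normexp background correction (0.15), loess centring (0.16) and quantile normalisation (0.18). The same held with a percentile over measured probes (0.19) and after subtraction of the median of neighbouring spots (0.198), but not after centring on the median (0.29).

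SYNM (synemin), the large type VI chain that co-assembles with desmin or vimentin, was the lowest of the measured members. Its intensities were 101.6 and 77.3 and its normalised log2 signals -1.63 and -1.83, a difference of -0.21 ± 0.22 (scanner error). The difference was smaller than the scanner error.

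**Figure D3:**
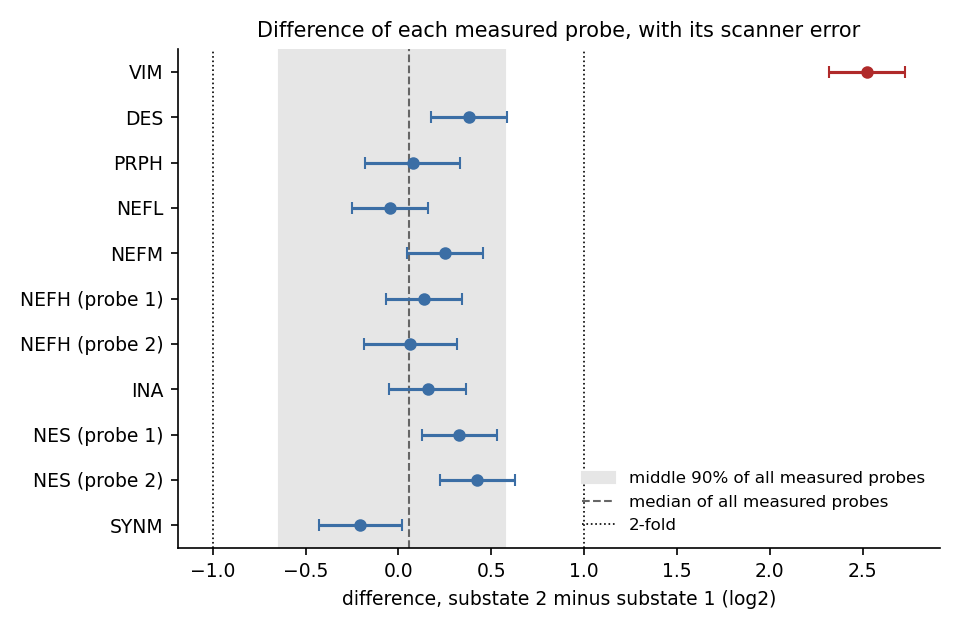
Difference of each measured filament probe (x axis, substate 2 minus substate 1, log2), with bars for the scanner error, a grey band from -0.64 to 0.57 that holds most measured probes, a dashed line at their median and dotted lines at 2-fold. VIM lies at 2.53, and the other 10 probes lie between -0.21 and 0.43, inside the grey band.

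Over the set, 11 probes of 9 genes were measured. By the 2-fold limit 1 of the 11 probes was higher in substate 2 and 0 were lower, against 1.55% higher and 1.67% lower among the 33166 probes above background on at least 1 array. By the Z-score of the study, with a limit of 2, the VIM probe (3.88) was the one call among all 13 probes. Z-scores of the other measured probes ran from -0.44 to 0.56. The upper limit was passed by 3.03% of all probes and the lower by 3.30%. At the gene level the call was again VIM alone, against 1.42% of 16863 genes higher and 1.31% lower.

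Without VIM, the median difference of the other 8 measured genes was 0.13, against 0.08 for all measured genes. Their 10 probes ran from -0.21 to 0.43, and 8 were higher and 2 lower in substate 2, while 40.2% of all measured genes had values below 0. The probes of PRPH, INA and NEFH had lower intensities in substate 2 and were higher there only after the arrays were scaled. After subtraction of the median of all measured probes, 6 of the 10 probes differed by less than the scanner error, and the exceptions were both NES probes, DES and SYNM. Apart from VIM, the differences of the members therefore had the size of those of an ordinary gene on these arrays, whose SD was 0.38.

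The scaling of the arrays moved the small differences but brought no other member to the 2-fold limit. VIM had a difference of 2.39 after loess centring, the lowest value, and 2.57 after centring on the median, the highest. Under the alternatives that rescaled whole arrays or changed the background, the other members stayed between -0.27 and 0.47, with 8 probes higher and 2 lower. INA had 0.08 and SYNM -0.05 after normexp, against 0.16 and -0.21. When the median of the neighbouring spots was subtracted from each probe, SYNM had -0.34, and the NEFH probes had 0.30 and -0.02.

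**Figure D4:**
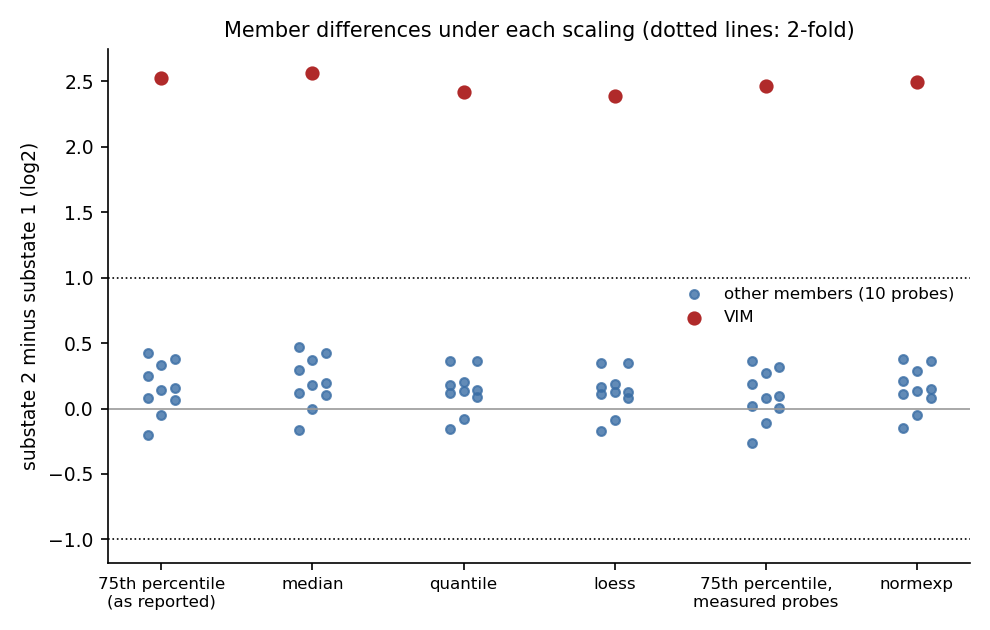
Difference of the filament probes (y axis, substate 2 minus substate 1, log2) under the reported scaling and 5 alternatives (x axis), with VIM in red, the other 10 measured probes in blue and dotted lines at 2-fold. VIM stays between 2.39 and 2.57, and no other member reaches the 2-fold limit.

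Genes that act on the filaments were read in the same way. Among 18 genes for turnover, chaperones and modifiers, 17 were measured and 2 were past 2-fold, both higher in substate 2, against 1.42% of all genes higher and 1.31% lower. CRYAB (alpha-B-crystallin), a small heat shock protein that binds desmin, vimentin and glial fibrillary acidic protein, had normalised log2 signals of -1.57 and -0.14, a 2.69-fold rise. HSPB2, a small heat shock protein whose gene neighbours CRYAB, had -0.15 and 1.17, a 2.49-fold rise. Each had 1 probe. By the Z-score, with a limit of 2, CRYAB (2.15) was a call and HSPB2 (1.97) was not. HSPB1, a related chaperone, differed by 0.47 over its 3 probes. TRIM32, a ubiquitin ligase that marks desmin for degradation, differed by 0.21.

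The plakins and other linkers, which tie filaments to desmosomes, actin and microtubules, had mostly negative values that stayed inside the 2-fold limit. Of 11 genes 10 were measured, and 9 of these had values below 0, with a median of -0.32 against 0.08 for all genes. Among all measured genes 40.2% had values below 0. The lowest were EPPK1 (epiplakin, -0.77), ANK1 (ankyrin, -0.71) and PPL (periplakin, -0.61), and PLEC (plectin), a linker of vimentin to other structures, had -0.12. Several of these proteins are also parts of epithelial junctions.

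Of 23 kinases and phosphatases that act on filament proteins, 21 were measured and none was past 2-fold, with a median of 0.28. PRKCA (0.79) and PRKACA (0.67), both kinases that phosphorylate vimentin, and PPP1CA (0.52), a phosphatase catalytic chain, were the highest, and CDK1, the mitotic kinase of vimentin and nestin, had -0.18. All 8 nuclear lamina genes were measured and none was past 2-fold, from LEMD3 (-0.23) to TMPO (0.47), with LMNA at 0.28. Of the 7 simple epithelial keratins 4 were measured. KRT8 had 0.33, KRT18 0.24, KRT7 0.16 and KRT19 -0.07, and none of these was past 2-fold. The 2 lens filament genes gave 1 measured value, 0.32 for BFSP1.

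**Figure D5:**
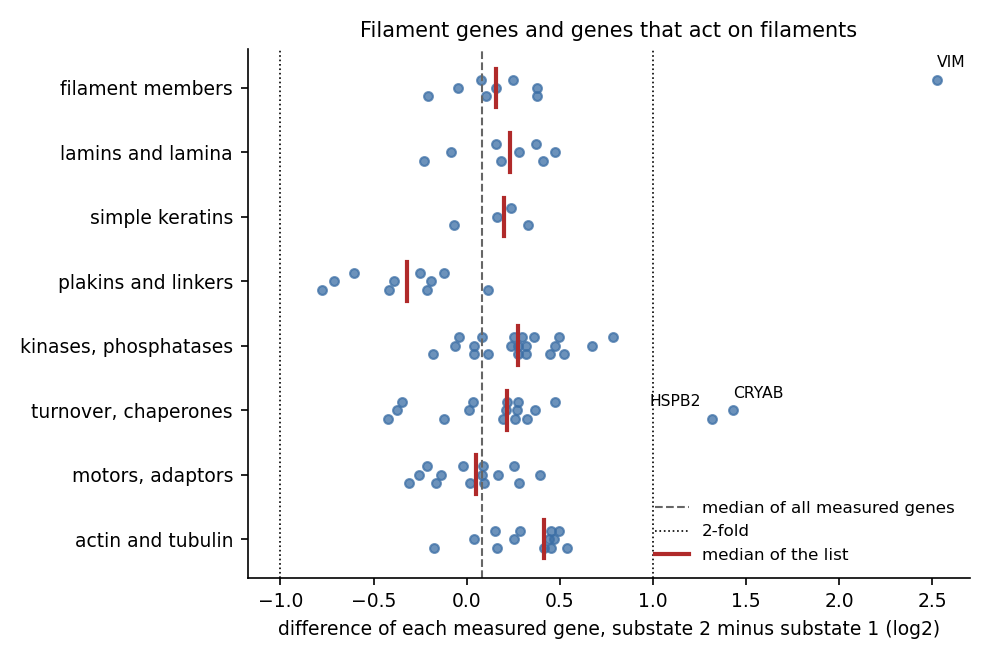
Difference of each measured gene (x axis, substate 2 minus substate 1, log2) in the filament set and in 7 lists of related genes (y axis), with a red bar for the median of the list, a dashed line for the median of all measured genes and dotted lines at 2-fold. VIM, CRYAB and HSPB2 are the genes past 2-fold, and the plakins lie mostly left of the dashed line.

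The transcription factors and progenitor genes that commonly accompany nestin differed in both directions. Of 15 genes 11 were measured, with a median of 0.11 and a range from HES1 (-0.83) to FABP7. POU3F2, a neural POU factor, was above background in substate 2 only and was at least 13.3-fold higher there by 1 probe. SOX1 and HES5 were likewise above background in substate 2 only, with bounds under 2-fold, and PAX6 was above background on neither array. SOX2 had 0.26 and POU3F1 -0.14. FABP7 and POU3F2 were the genes of this list past 2-fold, against 1.42% of all genes higher and 1.31% lower.

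The labelled cell type was checked against markers. All 10 pluripotent stem cell markers with a probe were measured on both arrays, from -0.35 (PODXL) to 0.42 (NANOG), and none was past 2-fold. Fibroblasts, which are rich in vimentin, were represented by 9 markers, of which the same number, 5, was above background on each array. Their summed linear signal, in units of the 75th percentile, was 168.0 in substate 1 and 153.1 in substate 2. Most of it came from THY1, with normalised log2 signals of 7.26 and 7.15 (-0.11), so the sum says little about the other markers. COL1A1 and COL1A2 had -0.49 and -0.50, PDGFRB 0.21 and PDGFRA 0.65, and COL3A1, DCN, LUM and FAP were above background on neither array. The summed signal of the 10 neuron markers was 11.0 and 16.2, with 8 above background on each array and ELAVL3 and ELAVL4 on neither. That sum was led by RBFOX3 (normalised log2 signals of 2.24 and 2.53) and MAP2 (1.51 and 2.54). STMN2, a growth cone protein, and MAP2, a dendritic microtubule protein, were 2.74-fold and 2.04-fold higher. Of all genes 1.42% were past 2-fold higher and 1.31% lower. By the Z-score, with a limit of 2, STMN2 (2.18) was a call and MAP2 (1.51) was not. SYT1, a synaptic vesicle protein, had -0.74 over probes at -0.27 and -1.22, and the part of such cells in the VIM difference was not tested.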

How the data were processed

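Gene expression in 2 RNA samples of H9 cells was measured on single-colour Agilent arrays, 1 per substate, on 1 slide and in 1 scan. Per the file headers, the deposited intensity of each spot came from Feature Extraction 11.5.1.1 with the protocol GE1_1105_Oct12, which corrects the background and marks spots well above it, and the array was annotated on hg19. The authors also deposited log2 values, made in GeneSpring by setting signals under 1 to 1 and shifting each array by its 75th percentile without a baseline transformation. These had medians of -3.57 and -3.62 and differed from the values computed here by a constant per array, within 0.01 for 100% of probes, and were used as an alternative.

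Here the processed intensity was treated in the same way: floor of 1 (0 spots were lower), log2, outlier spots left out, mean over the spots of a probe, minus the 75th percentile over non-control probes. Of the 58201 probes 31104 (53.4%) were matched to a gene by RefSeq accession. Probes annotated only by an Ensembl transcript were not matched, so a gene can have further probes. A gene value was the mean over its probes measured on both arrays. A probe above background on 1 array was given a bound, the bright value against the higher of the dim value and the lowest signal well above background on that array. A gene without a probe measured on both arrays took the largest of its bounds. The Z-score was the difference minus its mean over all probes (0.07), divided by its SD (0.63). The scanner error of a difference combined the errors that Feature Extraction gives for both signals. Intensity is not a count of molecules, and probes differ in affinity, so the level of one probe was not set against that of another, and a summed level of a marker list is led by its probes of high signal. Precision is limited by the number of arrays.

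The genes named were all members, list genes past 2-fold or the largest in a list where none was, and the 3 genes on either side of VIM in the order of differences. Exceptions were named for their role in the filament system or as markers, or because a value had been seen. The members are defined by filament type, but this set and the lists were picked with earlier results of these data known. The alternatives were quantile normalisation, loess (span 0.3) or median centring, a percentile over measured probes, normexp (offset 50, limma 3.58.1 in R 4.3.3) and changes to the floor, outliers, Z-score and fold limit. Normexp used the median spot signal, since the mean spot signal was not analysed here. Python 3.11.15 with pandas 2.3.3 and statsmodels 0.14.6 was used, and the steps were tested on simulated data.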

Additional observations from a re-analysis of the deposited data

How the results depend on the processing

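The call of VIM alone among the members, by the 2-fold limit and by the Z-score, was the same under every alternative run for it, a fold limit of 1.5 included. The VIM difference was 2.42 after quantile normalisation and 2.39 after loess centring, against 2.53, and 2.51 after subtraction of the median of its neighbouring spots, an alternative chosen after seeing the data. That subtraction turned the second NEFH probe from 0.07 to -0.02, and no other member changed sign. The counts over all probes moved more. Normexp gave 89 higher and 63 lower probes past 2-fold, against 514 and 553, and 812 past the upper Z-score limit and 2037 past the lower, against 1762 and 1923. A fold limit of 1.5 gave 1999 and 2534 probes. Single genes outside the member set, those past 2-fold included, were not followed under the alternatives. A Z-score over measured probes gave 491 and 909 calls, and one whose SD came from the median absolute deviation gave 4325 and 5815. Higher probes were 47.8% of Z-score calls, 58.6% after loess centring, 28.5% after normexp and 35.1% over measured probes, and 48.2% of 2-fold calls and 58.6% after normexp. The cause was not tested. The motor list had a median of -0.01 with a percentile over measured probes, the muscle list 0.01 after normexp and the pluripotency list -0.01 after loess centring, each of the opposite sign. Leaving out an array leaves none in its group and gave no value. No paired analysis was possible because there was a single array for each substate.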

Other observations

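The actin and tubulin genes, the other filament systems of the cell, lay slightly above the median of all genes in substate 2. Of 14 genes 13 were measured and 12 had values above 0, while 40.2% of all measured genes had values below 0. The median was 0.42 against 0.08 for all measured genes, and 0.22 against 0.03 when both were taken after loess centring. None was past 2-fold. The highest were TUBA1A (0.54), TUBB4B (0.49) and TUBB3 (0.47), the tubulin of neurons, and TPM1, a tropomyosin, was the one below 0 (-0.18).

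The 14 listed genes for motors and their adaptors were all measured, and none was past 2-fold. Their median was 0.05, and the values ran from KIF1A (-0.31) to KLC1 (0.39), a light chain of kinesin. Of the 15 mesenchymal genes that often accompany vimentin 12 were measured, 9 of them with values above 0. Their median was 0.27, against 0.08 for all measured genes, of which 40.2% had values below 0. Those past 2-fold were ZEB1 and ZEB2, both higher, against 1.42% of all genes higher and 1.31% lower. ZEB2 was above background in substate 2 only, and its 3 probes gave bounds of 2.43, 1.52 and 0.86, the last inside 2-fold. CDH2 (N-cadherin) had 0.82, TWIST2 0.57 and SPARC -0.72. The 1 probe matched to FN1 (fibronectin) was above background in substate 1 only and at least 1.55-fold lower in substate 2. It was dim in substate 1 also, with a normalised log2 signal of -3.56. Of the 10 mesendoderm markers 7 were above background on neither array, FOXA2 had 0.77, and MESP1 was at least 2.21-fold higher in substate 2 by 1 probe. MESP1 alone in this list was past 2-fold, against 1.42% of all genes higher and 1.31% lower. Its Z-score of 1.69 was under the limit of 2. GATA4 went the other way, above background in substate 1 only and at least 1.03-fold lower in substate 2.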
